A study of Mus musculus and Rattus norvegicus with 35 samples.

Results

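The circular RNAs described here are the longest mouse circles of the series by exon number: those whose deposited structure holds 10 or more separate exon blocks once blocks that touch are joined. They numbered 2880 of the 23461 circRNAs of the class the submitters call MEA that have a host gene (12.28%), and came from 1174 host genes; the deposited mouse table lists 28482 circRNAs in all. The study profiled circRNAs and linear RNA in C57BL/6 mice. Brain, heart, liver, lung and testis were represented by 3 rRNA-depleted libraries each, 1 from animals of 14 weeks and 2 from animals of 20 weeks. Hippocampus was sampled on embryonic day 18 (E18) and postnatal days 1, 10 and 30 (P1, P10, P30), with 2 libraries a stage. Mice of 4 weeks gave 1 library each of synaptosomes (pinched-off nerve endings), of the homogenate, and of the neuropil and the cell-body layer (somata) of hippocampal area CA1. A poly(A)-selected library of 14-week brain was also made, and libraries of Sprague Dawley rats were used here for read counts, host genes and exon lengths. The rat libraries came from CA1 neuropil and somata at 4 weeks (1 each), and from cultured hippocampal neurons of day 28, given water as control or 40 uM bicuculline for 12 h (2 each). Libraries of 14 and of 20 weeks cannot come from the same animal, so the spread within a tissue includes age. Within an age or stage, the labels do not say whether libraries came from separate animals. A p-value thus measures the spread between libraries, which may be in part technical.

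A circRNA forms when the spliceosome joins the end of a downstream exon to the start of an upstream one, a back-splice, so that the exons between them close into a ring. The ring has no free ends, which protects it from exonucleases, and circRNAs are known to accumulate in brain. The end that supplies the downstream splice site is called the donor and the start of the upstream exon the acceptor. A back-splice read covers this junction alone, and the exons inside the ring are those of the deposited structure, not ones read through in these data.

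The junctions of the circles on which the results turn are printed below, read 5′ to 3′ across the back-splice. The donor exon's last 20 bases are in lower case and the acceptor exon's first 20 bases are in capitals. They were taken from GENCODE M21 transcripts (GRCm38), while the coordinates are those of the deposited files (mm9), and blocks are counted after joining.
Ttn, 34 blocks, chr2:76695961-76719896, minus strand: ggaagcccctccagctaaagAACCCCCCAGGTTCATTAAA
Ttn, 35 blocks, chr2:76695961-76722254, minus strand: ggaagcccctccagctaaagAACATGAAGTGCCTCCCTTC
Ttn, 138 blocks, chr2:76641350-76719896, minus strand: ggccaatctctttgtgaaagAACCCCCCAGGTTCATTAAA
Kcnt2, 11 blocks, chr1:142259526-142346881, plus strand: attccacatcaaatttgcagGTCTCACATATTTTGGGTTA
Kcnt2, 12 blocks, chr1:142259526-142380810, plus strand: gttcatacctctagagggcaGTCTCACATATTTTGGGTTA
5730419I09Rik, 15 blocks, chr6:142977680-143021214, minus strand: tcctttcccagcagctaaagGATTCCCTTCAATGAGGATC
Cdk17, 11 blocks, chr10:92684332-92701788, plus strand: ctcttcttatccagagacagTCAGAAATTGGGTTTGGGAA
Stk31, 12 blocks, chr6:49375695-49407777, plus strand: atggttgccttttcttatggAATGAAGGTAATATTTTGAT
Pde1c, 14 blocks, chr6:56072986-56131791, minus strand: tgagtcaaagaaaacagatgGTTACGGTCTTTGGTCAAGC
Ascc3, 23 blocks, chr10:50409921-50487313, plus strand: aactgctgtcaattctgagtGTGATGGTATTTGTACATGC
Myo9a, 10 blocks, chr9:59649721-59690945, plus strand: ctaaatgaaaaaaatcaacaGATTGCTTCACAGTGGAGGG
Ezh2, 11 blocks, chr6:47490676-47508293, minus strand: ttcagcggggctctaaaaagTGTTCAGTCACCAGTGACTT
The set shows how circles of 1 host reuse an edge. The 34-block and 35-block circles of Ttn share the donor side of the junction and differ in the acceptor, the 34-block and 138-block circles share the acceptor, and both circles of Kcnt2 start at the same acceptor exon and close from different donors.

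The long circles had few reads. Over the 27 rRNA-depleted libraries they held 25439 back-splice reads, 7.01% of the reads of all hosted MEA circRNAs, with a median of 3 reads a circle. Of the 2880, 1087 (37.74%) had 2 or fewer reads, 468 had 10 or more, 214 had 20 or more and 26 had 100 or more. The 10 most-read circles held 17.22% of the reads. Circles of 10 or more reads made up 16.25% of the long circles, 24.34% of those of 5 to 9 blocks and 29.59% of those of 3 to 4 blocks. At the lower limit, the 659 circles of exactly 10 blocks had a median of 3 reads and a median genomic span of 30.66 kb, and the 849 circles of 9 blocks had 4 reads and 25.88 kb.

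They were long in exon sequence and longer in the genome. Exonic length ran from 535 to 20541 nt with a median of 2043.5 nt, against 914 nt for circles of 5 to 9 blocks. Genomic span ran from 3.37 to 676.89 kb with a median of 39.0 kb, and a median of 5.56% of the span was exonic. The exonic length per block had a median of 151.6 nt, and 140.9 nt in circles of 5 to 9 blocks. The median circle had 12 blocks, 316 had 20 or more, 74 had 30 or more and 12 had 50 or more.

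Against the GENCODE models, both ends of 2773 circles (96.28%) lay at exon edges of 1 transcript of the host. In 1123 (38.99%) every block equalled an exon of that transcript. Of the matched circles, 2512 (90.59%) spanned 10 or more exons in some transcript of the host and 261 spanned fewer in every one, so the exon number in the name holds for most and not all of them. The acceptor was exon 2 in 881 of the matched circles (31.77%), exon 3 in 298 and exon 1 in 16. The donor was the exon before the last in 375 and the last exon in 6. Among 955 circles that matched exactly and lay wholly within coding sequence, 379 (39.69%) had a length divisible by 3.

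Most long circles shared a splice edge with a shorter circle. The acceptor edge of 2007 (69.69%) was also that of a shorter circRNA, as was the donor edge of 1589 (55.17%). Either edge was shared in 2399 (83.3%) and neither in 481 (16.7%). A long circle was seldom the leading product of its host. Of the 468 with 10 or more reads, 100 (21.37%) were the most-read circle of their host gene, against 47.42% of circles of 2 to 4 blocks with as many reads. Of the 1174 hosts, 611 gave 1 long circle, 154 gave 5 or more and 24 gave 10 or more. The 2880 long circles came from these hosts, and the 8130 circles of 5 to 9 blocks from 3072 hosts. Nbea, which encodes the trafficking scaffold neurobeachin, gave 26, as did Ttn, the gene of the sarcomere protein titin, and Dgki, a diacylglycerol kinase gene, gave 24. The long circles took 8.32% of all circRNA reads of Nbea, 32.03% of those of Dgki and 92.11% of those of Ttn.

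Rat circles of 10 or more blocks numbered 1490, from 742 hosts. Of the mouse hosts, 455 (38.76%) also gave a rat circle of 10 or more blocks, and these were 61.32% of the rat hosts. A rat circRNA with the same exon lengths throughout, block by block, was found for 78 mouse circles (2.71%) of 63 hosts. The most-read of these came from Myo9a, an unconventional myosin with 10 blocks and 1223 nt, followed by Fam135a, Exoc6 (a subunit of the exocyst), Helz (a helicase) and Pcm1 (a centriolar satellite protein). The rat copy of the Myo9a circle had 5 reads, from libraries of CA1 and cultured neurons. The mouse circle had 414 over 27 libraries of more tissues, 163 of them in testis. A circle without a rat match may thus have been missed for depth or for tissue, which was not tested.

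Depth differed by library. A single read was worth 0.448 to 2.14 RPM, the deposited unit of reads scaled for library depth, and the 27 libraries held 1231 to 43523 circRNA reads, of which 48 to 2112 fell in long circles. The number of long circles seen was 33 to 892 a library. All 15 tissue marker genes were higher in every library of their tissue than in any library of the other tissues. No pair of libraries was a duplicate. The 14-week library stood apart from the 20-week ones in brain, testis and lung, and less so in heart and liver. Of genes at 50 TPM or more, 33.4% differed by over 10% between the 20-week brain libraries, and 82.1% and 81.9% between each of these and the 14-week library. The same percentages were 30.7%, 72.9% and 75.1% in testis and 39.8%, 67.1% and 67.1% in lung. In heart they were 49.5%, 65.7% and 68.1%, and in liver 63.4%, 74.3% and 74.6%. Age is no term of the fits below, and its part was not tested.

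As a share of circRNA reads, long circles were most frequent in heart. Their share of hosted MEA reads was 15.3% in the 14-week heart library and 20.6% and 17.1% in the 20-week libraries, a mean of 17.7% ± 2.70 (SD, n = 3). Testis had 11.5% ± 0.635, brain 7.07% ± 0.282, liver 4.39% ± 0.159 and lung 3.97% ± 0.958 (SD, n = 3 each). Every heart library was above every library of the other tissues, and every testis library was above all those of brain, liver and lung. The heart contrast was added after these shares had been seen. It gave 2.87 times the share in the other tissues (two-sided exact permutation test over 455 splits, p = 0.0022, the smallest this design can give, adjusted p = 0.00824 over 15 tests). The test shuffles single libraries, though the 3 of a tissue are alike and not independent units. Its p-value thus says that the 3 heart libraries lay highest and does not measure the spread between tissues. In brain the share was 0.922 times that of the others (exact permutation p = 0.853, adjusted p = 0.881), and in testis 1.70 times (exact permutation p = 0.167, adjusted p = 0.278).

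A single gene set the heart value. Circles of Ttn held 810 reads, 57.86% of the reads of long circles in heart. With circles of Ttn left out of both numerator and denominator, heart was at 8.08% ± 0.818 (SD, n = 3), brain at 7.07% and testis at 11.5%. The heart share was then 0.41 higher on the log2 scale than in the other tissues (exact permutation p = 0.314). That of testis was 1.05 higher (exact permutation p = 0.0022). Ttn was left out after the same shares had been seen, and these p-values are not adjusted. They too come from shuffling single libraries and do not measure the spread between tissues. The planned testis test, with Ttn, gave an adjusted p of 0.278 by exact permutation. Outside Ttn, the 3 testis libraries had the highest shares, from 10.8% to 12.0%, with the next library, a heart library, at 9.02%.

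**Figure D1:**
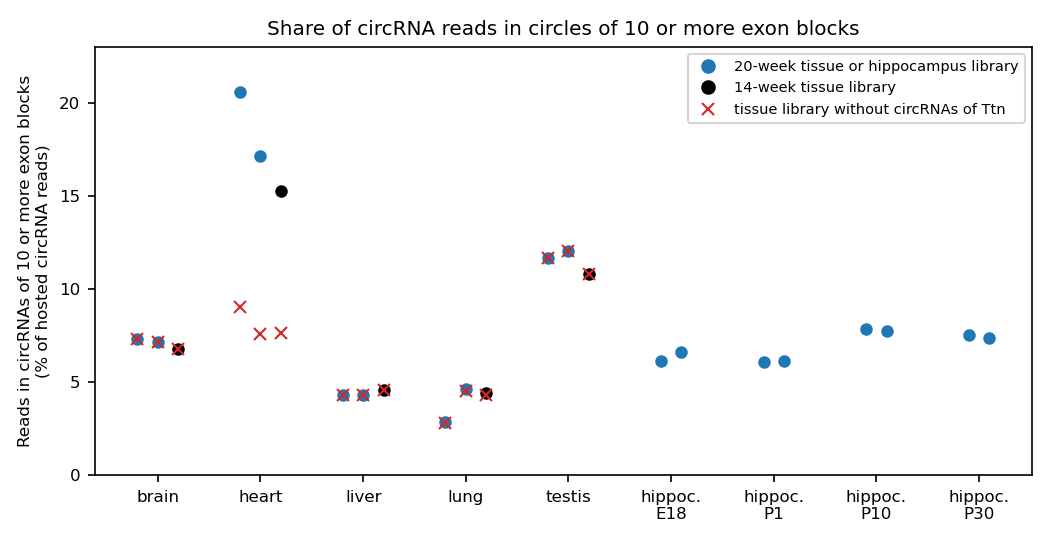
Share of hosted MEA back-splice reads that fell in circles of 10 or more exon blocks (y axis, percent), 1 point a library, by tissue or hippocampus (hippoc.) stage (x axis). Black points are 14-week tissue libraries, blue points 20-week tissue and hippocampus libraries, and red crosses the same tissue libraries without circles of Ttn; heart falls from 15.3 to 20.6% to 7.59 to 9.02% without Ttn, and testis stays between 10.8 and 12.0%.

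The sum of long-circle reads ordered the tissues differently from the share. It was 1765 ± 244 RPM in brain, 953 ± 490 in testis, 573 ± 74.4 in heart, 155 ± 31.8 in lung and 57.7 ± 9.4 in liver (SD, n = 3). The 3 testis libraries ran from 631 to 1517 RPM, so testis overlapped heart in its lowest library and did not reach the lowest brain library at 1539. In bulk tissue, more cells of a type and more RNA per cell cannot be told apart.

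For tests on single circles, values were compared as log2(RPM + 1.18) with limma across the 5 tissues, each tissue against the mean of the other 4. Of the long circles, 138 had reads in at least 3 libraries and at least 10 reads in all, and were tested among 1999 circRNAs; the rest had fewer reads than that. A circle read in 1 tissue passed this filter through that tissue and had to differ. A circle with only a few reads elsewhere passed it in the same way. No p-value is given for a named circle of either kind, and the counts that follow are read against those of all circRNAs tested. Of the circles called higher, 8 of 75 in brain, 16 of 56 in testis and 6 of 10 in heart had 0 reads in the other tissues. The 3 comparisons use the same 15 libraries and are not independent.

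In brain, 75 of the 138 were higher and 16 lower at an adjusted p of 0.05 (54.35% and 11.59%), where 62.7% and 6.25% of all circRNAs tested were called. The median log2 difference was 1.22 in long circles and 1.59 in all. Of the 138, 42 (30.4%) were called higher with no overlap between the groups, and 35.6% of all circRNAs tested were called higher with no overlap. The called circles came from 58 hosts, with 5 from Agtpbp1, a carboxypeptidase that trims tubulin, and 3 each from Strbp, Stk39 and Strn3. With every library scaled to the same circRNA total, which took the median of all circRNAs from 1.59 to 0.37, 31 circles were higher and 20 lower. Leaving out 1 library gave 42 (first 20-week brain library) to 76 higher, with 44 without the 14-week brain library. Of the 16 lower circles, 15 had 0 reads in brain, and edgeR called 0 lower with 0 at an unadjusted p under 0.05, while DESeq2 called 0 with 1 at an unadjusted p under 0.05.

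The most brain-restricted circles had near to no reads elsewhere. The 11-block circle of Cdk17, a cyclin-dependent kinase family member, was at 16.5 RPM in the 14-week and 33.4 and 23.0 RPM in the 20-week brain libraries, and 1 heart library at 1.38 RPM was the only other with a read. The difference was 4.29 ± 0.27 on the log2 scale (SE). The 11-block circle of Kcnt2, a sodium-activated potassium channel subunit, was at 14.1, 27.8 and 24.9 RPM in brain and at 1.54 RPM in the 14-week heart library, with 0 in the other 11 libraries (log2 difference 4.16 ± 0.28). The 15-block circle of 5730419I09Rik was at 15.3, 11.1 and 19.2 RPM in brain and at 0 in all 12 other libraries. In each of these the groups did not overlap.

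The most abundant long circles of brain were also read in other tissues. The 17-block circle of Strbp, at chr2:37436193-37502805, was at 89.4, 76.0 and 40.2 RPM in brain and at 30.2, 13.6 and 25.3 RPM in testis. Strbp encodes a spermatid perinuclear RNA-binding protein. Lung held 1.85 to 2.47 RPM of this circle, heart 0 to 1.54 and liver 0, so brain lay above every other library and testis above the remaining 3 tissues. The log2 difference was 4.17 ± 0.35 in brain (limma adjusted p = 1.76e-07) and 2.27 ± 0.35 in testis (adjusted p = 1.78e-04). The 11-block circle of Ttc3, an E3 ubiquitin ligase with tetratricopeptide repeats, at chr16:94605519-94624975, was at 20.0 RPM in the 14-week brain library and at 72.3 and 67.1 RPM in the 20-week ones. Heart, lung and testis held 4.20 to 11.5 RPM and liver 0 (brain log2 difference 3.32 ± 0.40, adjusted p = 5.78e-06). The 14-week library was thus the lowest of the 3 for Ttc3 and the highest for Strbp. A 13-block circle of Dennd1b, a Rab exchange factor, was at 16.5 RPM in the 14-week brain library and at 1.85 and 1.92 RPM in the others, so its brain call rests on unequal libraries. Without the 14-week brain library that circle was read in too few libraries to be tested, while the log2 difference was 3.94 ± 0.43 for Strbp (adjusted p = 2.73e-06) and 3.89 ± 0.40 for Ttc3 (adjusted p = 1.45e-06).

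**Figure D2:**
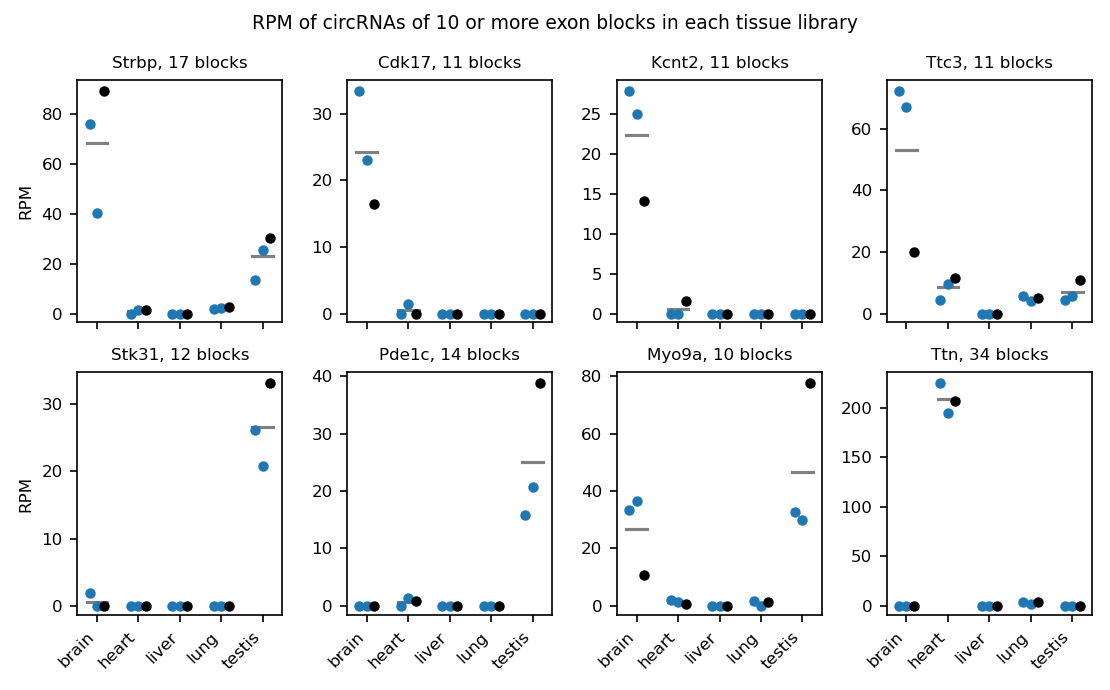
RPM (y axes, linear and different in each panel) of 8 long circles in the 15 tissue libraries, 1 panel a circle and 1 point a library. Black is 14 weeks, blue is 20 weeks and the grey line is the mean; the circles of Cdk17 and Kcnt2 are read nearly only in brain, those of Stk31 and Pde1c in testis, that of Ttn in heart, and those of Strbp and Myo9a in both brain and testis.

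In testis, 56 of the 138 were higher and 16 lower (40.58% and 11.59%), beside 21.5% and 14.4% of all circRNAs tested. The median log2 difference was 0.27 in long circles and -0.13 in all. Of the 138, 26 (18.8%) were called higher with no overlap, where 10.3% of all circRNAs tested were called higher with no overlap. The 56 came from 47 hosts, led by Rims2, a presynaptic active zone gene, with 4 circles and the tyrosine kinase gene Fer with 3. Without the 14-week testis library, 17 were higher, and the 20-week libraries of all tissues alone gave 13; without the first or the second 20-week testis library the count was 34 and 26. Of the 16 lower circles, 14 had 0 reads in testis, and edgeR called 1.

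The leading testis circles were absent or near absent elsewhere. The 12-block circle of Stk31, a kinase gene of male germ cells, was at 33.0, 26.0 and 20.7 RPM in testis and at 1.85 RPM in 1 brain library, with 0 in the other 11 (log2 difference 4.42 ± 0.28). The 14-block circle of Pde1c, a calmodulin-dependent phosphodiesterase, was at 38.8, 15.9 and 20.7 RPM in testis and at no more than 1.38 RPM in heart, the only other of the 5 tissues with a read (log2 difference 4.23 ± 0.28). The 23-block circle of Ascc3, a helicase of the activating signal cointegrator complex, was at 10.8, 12.5 and 11.5 RPM in testis and at 0 in the other 12 libraries. It held 3399 nt of exon sequence. In none of these did testis overlap the other tissues.

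Other testis circles were uneven across libraries. A 10-block circle of Gbe1, the glycogen branching enzyme, was at 40.2 RPM in the 14-week testis library and at 3.40 and 1.15 RPM in the 20-week ones, with 0 elsewhere. A 10-block circle of Pign, of glycolipid anchor synthesis, was at 29.5, 2.27 and 10.4 RPM. An 11-block circle of Rims2, at chr15:39268543-39310256, was at 10.1, 11.3 and 2.30 RPM in testis, 0 to 1.92 RPM in brain and 0 in heart, liver and lung (log2 difference 2.51 ± 0.36). The 10-block circle of Myo9a, the most-read long circle of testis, was at 77.6, 32.8 and 30.0 RPM there and at 10.6, 33.4 and 36.4 RPM in brain. Brain and testis overlapped for it, and both were above the other tissues, where no library passed 2.14 RPM.

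In heart, 10 of the 138 were higher and 26 lower (7.25% and 18.84%), beside 2.05% and 19.6% of all circRNAs tested. Of the 138, 8 (5.8%) were called higher with no overlap, where the share over all circRNAs was 0.85%. Of the 10, 6 were circles of Ttn; the others came from Clip1, a microtubule plus-end protein, Nsmaf, Agtpbp1 and Picalm, a clathrin adaptor. Of the 26 lower circles, 22 had 0 reads in heart, and edgeR called 0 lower with 3 at an unadjusted p under 0.05 (2 with TMM factors), while DESeq2 called 0 with 2. With equal circRNA totals 16 were higher and 23 lower, with equal medians 14 and 16. Without the 14-week, the first 20-week or the second 20-week heart library the count of higher circles was 3, 2 and 2.

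The heart result was mainly that of 2 circles of Ttn. The 34-block circle, of 6213 nt from exon 86 to exon 119 of a transcript of 313 exons, was at 207 RPM in the 14-week and 225 and 195 RPM in the 20-week heart libraries. It was at 2.10 to 3.71 RPM in lung and at 0 in brain, liver and testis (log2 difference 7.01 ± 0.25). The 35-block circle, which takes in exon 85 as well, was at 46.9, 107 and 67.7 RPM in heart and at 0 elsewhere. These junctions are the first and second printed above. All 26 long circles of Ttn had reads in heart, and heart held 810 of their 817 reads. The donor end of the 34-block circle was that of 8 of the 26 with 722 reads, its acceptor end that of 10 with 575 reads, and 9 circles had neither. They had 23 to 138 blocks, and the 138-block circle, the one with most blocks in the series, rested on 2 reads. The exonic length was divisible by 3 in 22 of the 26. In the first 20-week heart library the linear Ttn gene was listed at 4231 TPM, the deposited unit of gene level. It was at 0 TPM in the other 2 heart libraries, so its value is no measure of host level there. The host counts below still include it, and none of them is read as a result on Ttn.

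**Figure D3:**
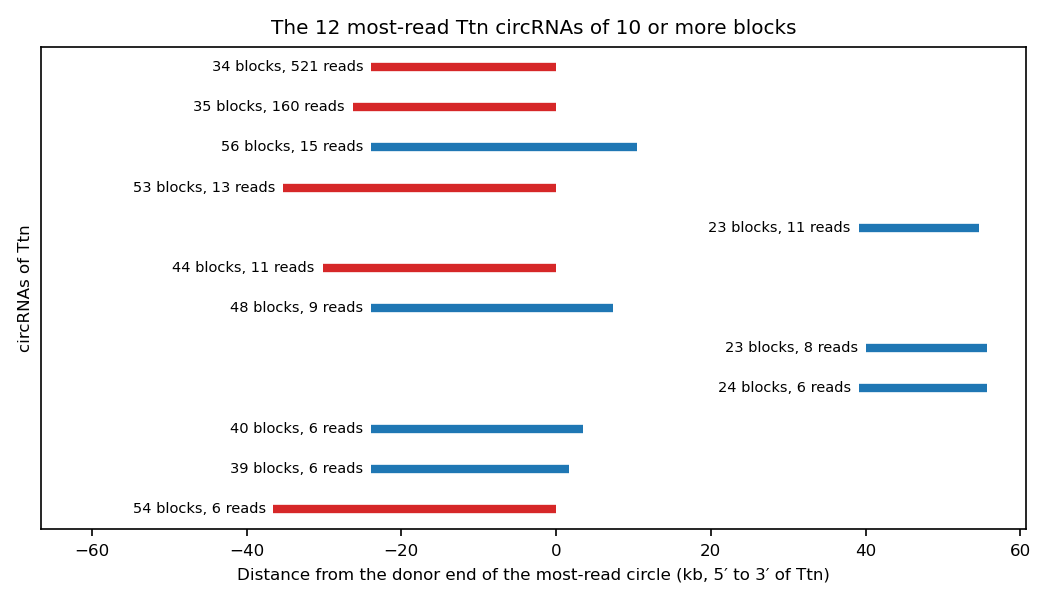
Extent of the 12 most-read long circles of Ttn as bars (x axis, kb from the donor end of the most-read circle, in the direction of transcription; y axis, circles in order of reads), with blocks and reads beside each. Red bars close from the donor end of the 34-block circle and blue bars from other ends; 5 of the 12 are red.

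Circles called higher in brain or testis mostly had a gene called the same way. Of the 105 hosts of tested circles, 74 were higher in brain and 9 lower as linear RNA (log2(TPM + 1), limma), where 45.4% and 28% of all genes tested were called; with equal gene medians the hosts were 39 and 33. Of the 75 circles higher in brain, 68 had a host called higher, 1 a host called lower and 6 a host with no call. Of the 16 lower in brain, 2 had a host called lower, 5 a host called higher and 9 no call. Among these 16, 6 were circles of Ttn, whose gene value was set aside above. In testis 50 hosts were higher and 34 lower, where 32.9% and 47.8% of all genes were called, and of the 56 circles higher there 41 had a host called the same way, 7 the opposite way and 8 no call. Of the 16 lower in testis, 5 had a host called lower, 3 a host called higher and 8 no call, and 6 of them were again circles of Ttn. Stk31 itself was at 111 to 137 TPM in testis and at no more than 0.369 TPM in any other tissue library. The gene Gbe1, whose circle was read in testis alone of the 5 tissues, was at 23.4 TPM ± 4.12 in testis and 55.0 TPM ± 33.9 in the other tissues (log2 difference -0.94 ± 0.15, limma adjusted p = 3.93e-05). That call is against the mean of the other tissues. The gene was at 80.4 to 121 TPM in liver and at 17.0, 19.7 and 17.9 TPM in brain, so testis was not lower than brain. The 11-block circle of Lyst, a gene of lysosomal trafficking, was at 14.4, 3.40 and 6.91 RPM in testis and at 0 elsewhere. The gene was lower in testis than the mean of the other tissues (log2 difference -1.27 ± 0.14, limma adjusted p = 1.43e-06). It overlapped heart, at 10.7, 11.3 and 7.72 TPM in testis and 8.27, 8.90 and 11.7 TPM in heart. In heart 17 hosts were higher and 50 lower, beside 19.7% and 45.1% of all genes. Of the 4 circles higher there that were not of Ttn, 2 had a host called the same way and 2 a host with no call. Differences between the change of a circle and that of its gene were not tested.

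By function of the host, few lists had enough tested circles to describe. All 5 tested circles of the ion channel list, which also holds an exchanger gene, were higher in brain, with a median log2 difference of 2.02. Of all circRNAs, 62.7% were called, with a median of 1.59. They came from 3 genes: the channel gene Kcnt2 (2 circles), the sodium-calcium exchanger gene Slc8a1 (2) and the calcium channel subunit gene Cacna2d1 (1). Slc8a1 is a transporter gene, so the count and median are not those of channel genes alone. Circles of a gene are not independent. The Cacna2d1 circle had 0 reads in the other tissues and so passed the filter through brain. For the 12-block Kcnt2 circle and the 2 of Slc8a1, brain overlapped the other tissues. Without the 14-week brain library the 11-block Kcnt2 circle alone could be tested, with a log2 difference of 4.43 ± 0.32. None of the 5 was higher in testis. Of 6 tested circles of presynaptic genes, 2 were higher in brain and 5 in testis, where 62.7% and 21.5% of all circRNAs were called; 4 of the 5 came from Rims2. Of 6 circles of membrane traffic genes, 2 were higher in brain and 4 in testis, among them that of Lyst, beside the same 62.7% and 21.5%. The 6 sarcomere circles were all of Ttn, higher in heart, and most had 0 reads in the other tissues and so passed the filter through heart. For meiosis and axoneme genes, which gave 17 long circles with 84 reads, no circle passed the filter.

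**Figure D4:**
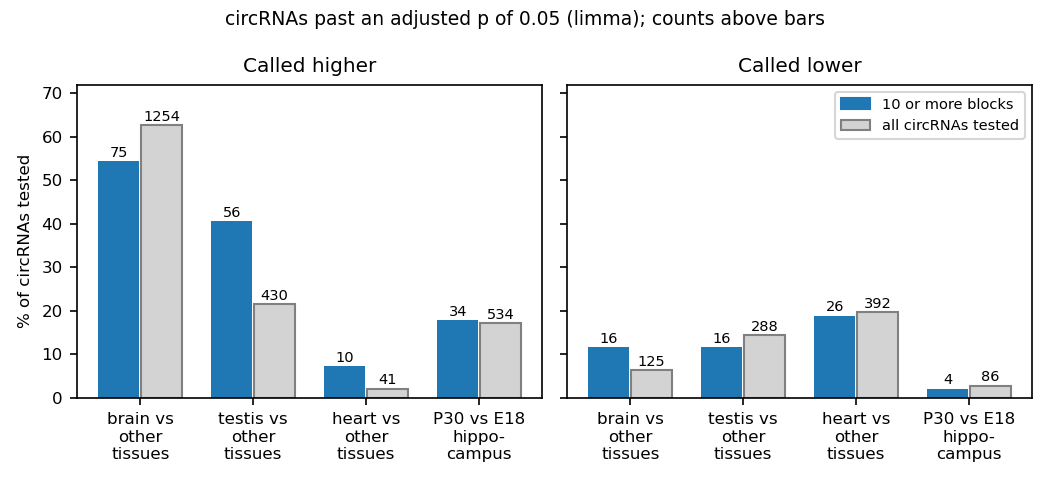
Percent of tested circRNAs past a limma adjusted p of 0.05 (y axis) in 4 comparisons (x axis), higher on the left and lower on the right, with counts above the bars. Blue bars are circles of 10 or more blocks and grey bars all circRNAs tested; long circles were called higher in testis in 40.58% against 21.5% of all, and in brain in 54.35% against 62.7%.

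In developing hippocampus the share of long circles was 6.13% and 6.60% at E18, 6.10% and 6.11% at P1, 7.76% and 7.86% at P10, and 7.36% and 7.50% at P30. Both later stages lay above both earlier ones; stages were not tested against each other, since 2 libraries against 2 cannot pass the threshold in an exact test. In summed RPM the long circles were at 655 ± 4.8 at E18, 708 ± 33.6 at P1, 683 ± 15.3 at P10 and 1221 ± 13.3 at P30 (SD, n = 2). The 6 libraries of the first 3 stages lay between 651 and 731 RPM and both P30 libraries at 1211 or above. All circRNAs together also rose, from 11493 and 10826 RPM at E18 to 17782 and 18414 RPM at P30.

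On log2(RPM + 0.578), 191 long circles were tested among 3118 circRNAs of the 8 hippocampus libraries. Between E18 and P30, 34 were higher at P30 and 4 lower (17.8% and 2.09%), beside 17.1% and 2.76% of all circRNAs tested; the median log2 difference was 0.78 in long circles and 0.55 in all. The 34 came from 27 hosts, with 3 from Dgki, and 12 of them had 0 reads at E18. With equal circRNA totals, which took the median of all circRNAs to 0.10, 11 were higher and 5 lower, and with equal medians 12 and 5. Leaving out a library of E18 gave 14 and 16 higher, and leaving out a library of P30 gave 9 and 11. Cell markers moved over the same interval: summed TPM of 5 oligodendrocyte markers was 25.2 to 25.9 at E18 and 8529 to 9627 at P30, of 5 neuron markers 371 to 439 and 3294 to 3747, and of 5 progenitor markers 318 to 366 and 15.7 to 16.5. None of these markers was at 0, and their part in the circle differences was not tested.

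The circles that rose did so at different stages. The Strbp circle was at 5.99 and 5.61 RPM at E18, 6.03 and 5.71 at P1, 22.5 and 15.6 at P10, and 45.8 and 55.0 at P30. It was flat to P1 and higher at each later stage without overlap (P30 against E18, log2 difference 2.99 ± 0.32, limma adjusted p = 1.35e-06). The gene Strbp stayed at 213 TPM ± 10.6 at P30 and 196 TPM ± 5.81 at E18 (log2 difference 0.12 ± 0.15, adjusted p = 0.531). The 11-block Kcnt2 circle was at 2.18 and 1.87 RPM at E18, 5.02 and 0.816 at P1, 11.5 and 10.8 at P10, and 26.1 and 17.1 at P30 (log2 difference 3.06 ± 0.51, adjusted p = 2.60e-04). Its gene rose as well, from 7.08 to 40.1 TPM in the mean.

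Others stayed low to P10 and were higher at P30. The 13-block circle of Dgki, at chr6:36950042-37008028, was at 0 in both E18 libraries, reached no more than 0.978 RPM at P1 and P10, and was at 4.64 and 11.0 RPM at P30. It passed the filter through P30, so no test is given. The 13-block circle of Dennd1b, at chr1:140936577-141007062, was at 0.545 and 0.624 RPM at E18, 1.63 to 3.02 at P1 and P10, and 9.27 and 7.33 at P30 (log2 difference 2.93 ± 0.57, limma adjusted p = 9.76e-04). The 15-block circle of 5730419I09Rik was at 0.545 and 0 RPM at E18 and at 11.0 and 6.11 RPM at P30 (log2 difference 3.45 ± 0.65). With so little at E18, no p-value is given for it. In the 3 circles no P30 library overlapped an earlier one.

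The 4 circles that fell came from 3 hosts. The 13-block circle of Ezh2, the histone H3 lysine methyltransferase of Polycomb, at chr6:47490676-47527666, was at 31.6 and 34.3 RPM at E18 and 32.2 and 36.7 at P1. It was then at 6.34 and 12.2 RPM at P10 and 6.95 and 5.50 at P30, without overlap between the early and the late pair of stages (log2 difference -2.31 ± 0.32, adjusted p = 2.80e-05). The 11-block Ezh2 circle, whose junction is printed above, closes from the same donor end and also fell (log2 difference -1.87 ± 0.59, adjusted p = 0.0284). The Ezh2 gene was at 117 TPM ± 9.56 at E18 and 19.7 TPM ± 1.24 at P30. Circles of Yes1, a Src family kinase (log2 difference -1.67 ± 0.54, adjusted p = 0.0326), and of Vmn1r90 (-1.34 ± 0.39, adjusted p = 0.0176) were the other two. The calls of the 11-block Ezh2 circle and of these circles were lost when a library was left out. Of the 34 circles that rose, 20 had a host gene called higher, 1 a host called lower and 13 a host with no call; the genes of all 4 that fell were called lower. Over all 131 hosts of tested circles, 48 genes were higher and 22 lower at P30, where 29.5% and 26.8% of all genes were called.

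**Figure D5:**
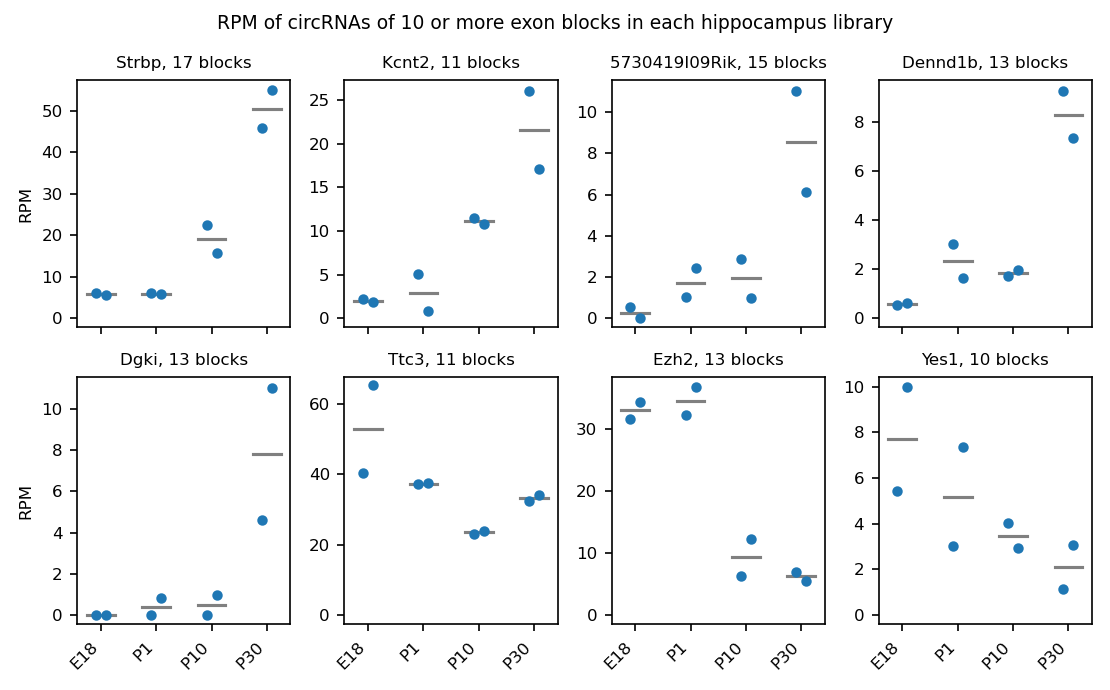
RPM (y axes, linear and different in each panel) of 8 long circles in the 8 hippocampus libraries by stage (x axis), 2 points a stage with the mean as a grey line. Circles of Strbp and Kcnt2 are higher at P10 and again at P30, those of 5730419I09Rik, Dennd1b and Dgki at P30, and the Ezh2 circle is above 31 RPM at E18 and P1 and below 13 RPM at P10 and P30.

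The abundant Ttc3 circle did not follow either course. It was at 40.3 and 65.5 RPM at E18, 37.2 and 37.5 at P1, 23.0 and 24.0 at P10, and 32.5 and 34.2 at P30 (P30 against E18, log2 difference -0.62 ± 0.24, limma adjusted p = 0.0702). With 179 reads it was the most-read long circle of E18 hippocampus (7.95% of long-circle reads), and at P30 the Strbp circle led. Of 11 tested circles of presynaptic genes, 4 were higher at P30 (3 of Dgki and 1 of Rims1, an active zone gene). So were 2 of 8 of the ion channel list, both of Kcnt2, and 1 of 4 of postsynaptic genes, that of the scaffold Cnksr2. Of all circRNAs tested, 17.1% were higher. The calls of the Rims1 and Cnksr2 circles and of the 12-block Kcnt2 circle were lost without 1 library.

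The fractions of 4-week brain have 1 library each, so ratios carry an exact 95% interval for counting error alone and no test of the fraction. Long circles were 4.71% of hosted MEA reads in synaptosomes (exact interval 4.50 to 4.92%) and 5.08% in homogenate (4.84 to 5.32%). Of 51 long circles with 10 or more reads over the pair, the median synaptosome-to-homogenate ratio of RPM was 1.40, beside 1.47 in 1543 hosted circRNAs. The interval lay above 1 for 6 circles (11.8%) and below 1 for 1 (2.0%), beside 16.5% and 1.2% of the hosted circRNAs. The one below was the Strbp circle, at 14.3 RPM in synaptosomes and 28.2 RPM in homogenate (ratio 0.506, 0.307 to 0.81). The highest ratios were those of an 11-block circle of Dennd1b (4.17, 1.48 to 14.4) and of the 13-block circle of Ezh2, at 10.4 and 2.69 RPM (3.88, 1.49 to 11.9). Glial markers differed too: summed TPM in synaptosomes and homogenate was 2682 and 819 for astrocyte, 10325 and 5430 for oligodendrocyte, 817 and 216 for microglia and 1996 and 4258 for neuron markers, 5 genes each, and their part was not tested.

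In CA1, the share of long circles was 6.42% in neuropil (exact interval 6.10 to 6.75%) and 7.25% in somata (6.80 to 7.72%). The median neuropil-to-somata ratio was 1.69 in 31 long circles and 2.05 in 667 hosted circRNAs. The interval lay above 1 for 7 of the 31 (22.6%) and for 217 of the 667 (32.5%), and below 1 for none of either. The 12-block circle of Kcnt2 had 13.0 RPM in neuropil and 1 read, 0.925 RPM, in somata (ratio 14.1, 2.08 to 601). The 11-block circle with the same acceptor had 36.8 and 23.1 RPM (1.59, 0.923 to 2.79). Ratios above 1 were also seen for circles of Dennd1b (7.03, 1.57 to 64.7), Ccdc132 (4.30, 1.69 to 13.0) and Ttc3 (3.13, 1.40 to 7.64). The Strbp circle, the most-read in both layers, was at 58.5 and 49.0 RPM (1.19, 0.802 to 1.78). Summed astrocyte markers were at 1974 TPM in neuropil and 730 TPM in somata, and neuron markers at 2445 and 2828 TPM.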

How the data were processed

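The authors deposited gene levels in TPM. The circRNA values, deposited by the authors under the name TPM, behave as RPM: each is a whole multiple of 1 step in its library (100% within a tolerance of 0.1), so whole back-splice reads were recovered by division. The denominator, the circRNA caller and the meaning of MEA are not given in the sources used here. CASAVA 1.8.2, TopHat2 2.0.6, Cufflinks 2.2.1 and mm9 and rn5 are named, without roles, per the submitters' processing notes. The block number and positions (BED block columns) are those deposited by the authors.

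Circles were tested with limma 3.58.1 in R 4.3.3 (eBayes with trend, two-sided) on log2(RPM + the median value of 1 read), over all circRNAs with at least 10 reads and reads in at least 3 tissue or 2 hippocampus libraries, with Benjamini-Hochberg adjustment over all tested and a threshold of 0.05. Genes needed 1 TPM in as many libraries and had a pseudocount of 1 TPM. Fold changes on these scales understate low values. Shares were compared by two-sided exact permutation of single libraries across tissues, which ignores that libraries of a tissue are alike. The poly(A) library entered no fit. edgeR 4.0.16 on recovered reads and DESeq2 1.42.0 were alternatives. The limma procedure was tested on simulated data with 200 changed circRNAs: in brain (2174 circRNAs) 42% of the 4-fold and 68% of the 8-fold changes were recovered, in testis (2170) 43% and 67%, and between P30 and E18 (3222) 30% and 66%, and 0.101 to 0.132% of unchanged circRNAs were called. In the simulation every unchanged circRNA had the same mean RPM in all groups, with a single fixed dispersion. Changed circRNAs were drawn from those with reads above the floor of the fits. In the data 62.7% of circRNAs tested were higher in brain, so the simulated rates need not hold there. A long-read hippocampus sample was not analysed here. A transcript was matched where both ends of the circle lay at its exon edges. At least 80% of block edges also had to lie at exon edges of any transcript of the host. Distances, not coordinates, were compared, because the annotation is of another build. Circles were named by rule (per comparison and direction the 10 largest differences past the threshold, with no overlap and a mean of at least 5 pseudocounts, plus the most-read, the longest, the extremes of each pair, the leading circles of each host list and of the rat match). Those of Nsmaf, Picalm, Ccdc132, Cacna2d1, Fer, Aass and Asph lie outside it and were chosen after their values were seen. The long circles and the host lists were chosen with earlier results of these data known.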

Additional observations from a re-analysis of the deposited data

How the results depend on the processing

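The alternatives other than leaving out a single library include the fits on 20-week libraries only. In them, 94 results for whole comparisons kept their direction and side of the threshold or stayed within 1.5 times of their count. A further 60 counts or values moved more. Of the rest, 1 lost its call, 1 gained one and 2 turned direction. For single circles, 479 such values kept their call, 86 lost it, most often with DESeq2, and none turned direction. The number of circles called higher in brain (75) became 29 with a floor of 20 reads, 198 with no floor, 31 with equal circRNA totals, 21 with DESeq2 and 30 in 20-week libraries; 165 without joining touching blocks, 37 with a limit of 12 blocks and 149 with 8. Calls lower in brain (16) became 7 with a floor of 20, 0 with either edgeR scaling or DESeq2 and 2 in 20-week libraries. Higher in testis (56) became 21 with a floor of 20, 92 with none, 5 with DESeq2, 13 in 20-week libraries, 31 with 12 blocks and 87 with 8; lower in testis (16) became 8, 1 with either edgeR scaling, 0 with DESeq2 (2 at an unadjusted p under 0.05), 4 in 20-week libraries, 30 unjoined and 34 with 8 blocks. Higher in heart (10) became 4 with a floor of 20, 16 with equal totals, 1 with DESeq2 and 3 in 20-week libraries. Lower in heart (26) became 15 with a floor of 20, 13 with none, 8 with a pseudocount 5 times larger, 16 with equal medians, 0 with either edgeR scaling or DESeq2, 7 in 20-week libraries, 50 unjoined, 14 with 12 blocks and 52 with 8. Higher at P30 (34) became 82 with no floor, 20 with a pseudocount 5 times smaller, 11 with equal totals, 12 with equal medians, 18 with TMM, 4 with DESeq2, 58 unjoined and 60 with 8 blocks; lower at P30 (4) became 16 with no floor, 2 with the smaller pseudocount, 1 with DESeq2, 11 unjoined, 1 with 12 blocks and 8 with 8 blocks. Equal gene medians took host genes in brain from 74 higher and 9 lower to 39 and 33, and hosts lower at P30 from 22 to 34. The cause of these changes was not tested.

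The difference in share between brain and the other tissues (log2 -0.12) turned to 0.0859 without the most-read long circle of each library, to 0.17 without Ttn and to 0.0133 without the first 20-week heart library; testis went from 0.76 to 1.05 and heart from 1.52 to 0.41 without Ttn. P30 against E18 (0.22) was 0.44 for 12 blocks or more and 0.093 unjoined.

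Leaving out each library in turn gave 42 to 76 circles higher and 6 to 16 lower in brain, 17 to 56 and 9 to 16 in testis, 2 to 10 and 2 to 24 in heart, and 9 to 33 and 1 to 4 at P30. Host genes ran from 63 to 81 higher and 7 to 9 lower in brain, and from 40 to 57 and 14 to 26 at P30, the 14 without the second P30 library. The log2 differences in share ran from -0.25 to 0.0133 in brain, 0.65 to 0.91 in testis, 1.41 to 1.62 in heart and 0.17 to 0.28 at P30. Lower calls in brain fell to 8, 8 and 6 without the 14-week, first or second 20-week brain library, to 9, 10 and 10 without those of heart in that order and to 9, 10 and 9 without those of testis. Lower calls in testis fell to 9 without any 1 of its libraries or the second 20-week brain library. Lower calls in heart fell to 4, 2 and 3 without a heart library, to 17, 17 and 15 without one of liver and to 14 without either 20-week brain library. The 4 lower calls at P30 fell to 1 without the second E18 library and 2 without the second P30 library.

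Same-numbered libraries did not deviate together (r from -0.021 to 0.161 over 30 pairs of tissues and 0.015 to 0.036 over 12 of hippocampus), so the numbers were not taken to pair libraries. With a replicate block, 75 circles were higher and 15 lower in brain, 55 and 15 in testis, 10 and 22 in heart and 35 and 5 at P30, and 76 and 9 host genes in brain and 56 and 28 at P30. Depth is a limit as well: 138 and 191 of the 2880 long circles had reads enough to be tested.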

Other observations

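Liver, with 57.7 RPM of long circles, was led by 1 circle of Aass, a mitochondrial enzyme of lysine degradation, at chr6:23057140-23072737, which held 42 reads or 21.43% of the long-circle reads of the 3 liver libraries. A circle of Asph, an aspartyl and asparaginyl hydroxylase, followed with 10 reads (5.1%) and was the most-read long circle of lung with 11 reads (3.89%).

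Testis also differed from the other tissues in the shorter classes. Circles of 1 block held 3.50% ± 0.408 of hosted MEA reads in testis and 8.81% ± 1.41 in the other 12 libraries, and circles of 5 to 9 blocks 42.0% ± 0.724 and 28.1% ± 2.28 (SD; two-sided exact permutation p = 0.0022 for each, adjusted p = 0.00733 over 10 tests, the smallest p this design can give). No library overlapped between the groups in either class. Single libraries were shuffled here as well, so the p-values do not measure the spread between tissues.

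The poly(A)-selected brain library held 9 long-circle reads among 90 hosted MEA reads (10.0%, exact 95% interval 4.68 to 18.1%). All 16 long circles with 10 or more reads over the pair of 14-week brain libraries had 0 reads in it, and the median ratio over the 346 hosted circRNAs with as many reads was 0 as well.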
